A study of Gallus gallus with 9 samples.

Results

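Matrix metalloproteinases (MMPs), their tissue inhibitors (TIMPs) and lysyl oxidases were followed in sorted cell fractions of the embryonic chicken gonad. The set named 9 genes, TIMP2, TIMP3, MMP2, MMP9, MMP11, MMP16, LOX, LOXL1 and LOXL2, and was put together by gene symbol. The platform annotation listed 8 of them on 11 probe sets, among 13009 genes measured in all, and MMP11 is not analysed here. A gene with several probe sets was represented by the one whose mean across the 9 arrays was highest.

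Embryos at 6.5 days, labelled WL, supplied the gonads, whose cells were divided by magnetic sorting (MACS) into PGCs, the usual short form of primordial germ cells, and GSCs, a term the labels leave unexplained. Both groups shared the WL label, age and tissue, no treatment or genotype was recorded, and neither the antigen of the sort nor the sex of the embryos is given in the sources used here. There were 3 PGC and 6 GSC samples, each on its own Affymetrix GeneChip Chicken Genome Array, and the number of arrays limits the precision. Whether the samples came from separate pools of embryos is not stated, so p-values cover only the spread between these samples, which may be technical.

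MMPs are zinc-dependent endopeptidases that cut collagens, basement membrane and other matrix proteins, and most are made as inactive precursors. TIMPs are small secreted proteins that block the active site of MMPs and of some related ADAM proteases. Lysyl oxidases work in the other direction on the matrix: these copper-dependent enzymes oxidise lysines of collagen and elastin, which lets the fibres cross-link. In embryos such genes are known mostly from mesenchymal and other stromal cells, which lay down and remodel matrix.

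Values are log2 expression values made by the authors with RMA, so a step of 1 is a 2-fold difference, and they are compared only between arrays, not between genes. As a guide to dimness, the 95th percentile of 57 reporter probe sets that match no chicken gene was 2.88, called the reporter mark below. Tests were limma fits over all genes, with p-values adjusted by Benjamini and Hochberg, and a gene was called at an adjusted p under 0.05. Such calls were frequent in this comparison: 42% of all genes were called, 22.5% higher and 19.5% lower in PGC, and in 36.4% the PGC and GSC arrays did not overlap.

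The sort labels were set beside marker lists. These lists were chosen with earlier results of these data known, so they give no independent check. All 8 germ cell markers were higher in PGC, with list means (log2) of 7.84 to 8.64 on the PGC arrays and 4.32 to 4.64 on the GSC arrays. All 7 measured gonadal somatic cell markers were lower, with means of 4.45 to 6.25 in PGC and 7.12 to 7.18 in GSC. A list of mesonephric epithelium markers had higher means in PGC too, 6.29 to 6.79 against 4.07 to 4.63 in GSC. Of its 8 markers 6 were higher and 2 were lower. The PGC arrays thus stood out not in germ cell markers alone. PGC replicate 3 stood nearer to the GSC arrays (r 0.956 to 0.969 over all probe sets) than PGC replicate 1 (0.930 to 0.941) and PGC replicate 2 (0.942 to 0.95). It had the lowest germ cell mean of the PGC arrays, 7.84, and the highest somatic mean, 6.25, so the change of each of the 8 genes is given with and without it. In bulk fractions such as these, fewer cells of a type and less RNA per cell cannot be told apart.

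Of the 8 genes, 7 were called, against 42% of all genes. TIMP2, LOXL1 and MMP9 were higher in PGC, and MMP2, MMP16, LOXL2 and TIMP3 were lower. Without PGC replicate 3, 2 were higher and 4 lower, since MMP9 lost its call. Over all 13009 genes, calls rose in that setting, from 2923 to 3321 higher and from 2543 to 2983 lower. The remaining gene of the 8, LOX, did not pass and lay below the reporter mark on all 9 arrays. The inhibitors TIMP2 and TIMP3 and the lysyl oxidases LOXL1 and LOXL2 thus differed in opposite directions. Among the proteases only the dim MMP9, whose PGC and GSC arrays touched, was called higher. The median log2 change of the 8 genes was -0.73, and that of all genes was -0.02. In 6 of the 8 genes the PGC and GSC arrays did not overlap, against 36.4% of all genes, the exceptions being MMP9 and LOX. The genes had been chosen with earlier results of these data known, so the counts describe them and carry no test of the set.

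**Figure D1:**
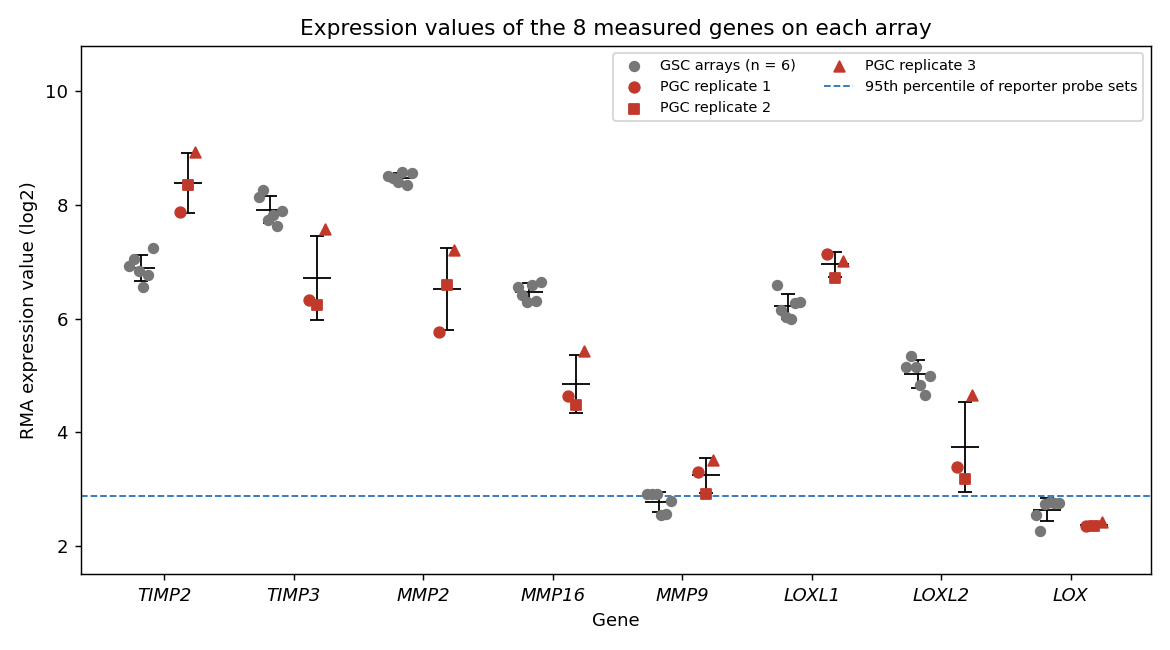
RMA expression values (log2, vertical axis) of the 8 genes on the 6 GSC arrays (grey) and the 3 PGC arrays (red, 1 symbol per replicate), with mean and SD as black bars and the reporter mark as a dashed line. TIMP2 and LOXL1 lie higher on every PGC array, TIMP3, MMP2, MMP16 and LOXL2 lower, MMP9 straddles the mark and all values of LOX lie under it.

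TIMP2 and TIMP3 differed in opposite directions. TIMP2, an inhibitor that in mammals also helps a membrane-type MMP to activate the MMP2 precursor, was read by probe set Gga.2965.1.S1_at. It measured 7.88, 8.35 and 8.94 (log2) in PGC replicates 1, 2 and 3, and from 6.56 to 7.23 with a median of 6.88 in the 6 GSC arrays. Every PGC array lay above every GSC array, with a gap of 0.64, and PGC replicate 3 was the highest. The PGC mean was 8.39 ± 0.53 (SD, n = 3), against a GSC mean of 6.896 ± 0.23 (SD, n = 6). The log2 change of 1.49 ± 0.21 (SE) corresponds to a 2.81-fold higher level in PGC (limma adjusted p = 0.000207). This change was larger in size than that of 93.9% of all genes. Without PGC replicate 3 it was 1.22, and without PGC replicate 1 it was 1.75.

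The second TIMP2 probe set, Gga.2965.1.S2_at, lay below the reporter mark on all 9 arrays, with means of 1.89 in PGC and 1.82 in GSC. Its log2 change of 0.08 did not pass (limma adjusted p = 0.584 over all probe sets, of which 28.4% were called). The result for TIMP2 thus rests on 1 of its 2 probe sets. With the mean of both the log2 change was 0.78 ± 0.13 (SE), which also passed. Averaging with a flat probe set shrinks change and SE together, so this is no separate check.

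TIMP3, an inhibitor that binds to the matrix itself and blocks several ADAM proteases as well as MMPs, was read by 1 probe set, Gga.2827.2.S1_a_at. Its log2 values were 6.33, 6.24 and 7.57 in PGC replicates 1, 2 and 3, and 7.63 to 8.26 with a median of 7.86 in GSC. The groups did not overlap, but PGC replicate 3 lay only 0.06 below the lowest GSC array. The means of 6.71 ± 0.74 (SD, n = 3) and 7.92 ± 0.24 (n = 6) gave a log2 change of -1.20 ± 0.26 (SE), a 2.30-fold lower level in PGC (limma adjusted p = 0.00343). Without PGC replicate 3 the change was -1.63, and without PGC replicate 2 it was -0.97, and both passed. TIMP4, the other inhibitor of the family that the array lists, was below the reporter mark on all 9 arrays and did not pass (log2 change -0.15).

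MMP2 had the largest difference of the 8 genes over all 9 arrays, though without PGC replicate 1 that of TIMP2 (1.75) exceeded it (-1.58). MMP2 is gelatinase A, a secreted enzyme that cuts denatured collagen and collagen IV and is typical of mesenchymal cells. Its probe set Gga.3199.1.S1_at measured 5.77, 6.59 and 7.21 (log2) in PGC replicates 1, 2 and 3, and 8.34 to 8.58 with a median of 8.50 in GSC. The highest PGC array lay 1.13 below the lowest GSC array. The GSC arrays were very close together (8.48 ± 0.09, SD, n = 6), and 13.7% of genes had a smaller SD in GSC. The PGC arrays spread widely (6.52 ± 0.72, n = 3), and 96.1% of genes had a smaller SD in PGC. The log2 change was -1.95 ± 0.24 (SE), a 3.88-fold lower level in PGC (limma adjusted p = 7.48e-05), and only 3 PGC arrays set its size, which ran from -1.58 without PGC replicate 1 to -2.30 without PGC replicate 3.

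MMP16, a membrane-type protease (MT3-MMP) that is anchored on the cell surface and can activate the MMP2 precursor in mammals, had 3 probe sets. The one with the highest mean, Gga.2098.1.S1_at, measured 4.63, 4.49 and 5.43 (log2) in PGC replicates 1, 2 and 3, and 6.29 to 6.65 with a median of 6.49 in GSC. The groups were parted by a gap of 0.86. The means were 4.85 ± 0.51 (SD, n = 3) and 6.47 ± 0.15 (n = 6), and the log2 change of -1.62 ± 0.19 (SE) stands for a 3.07-fold lower level in PGC (limma adjusted p = 5.53e-05). A second probe set, Gga.2098.2.S1_a_at, also did not overlap between the groups and was 2.29-fold lower in PGC (log2 change -1.20 ± 0.19 SE). The third, Gga.2098.2.S1_at, was below the reporter mark on all 9 arrays and did not pass (-0.29). With the mean of the 3 probe sets the log2 change was -1.04, which passed but is no separate check. Without PGC replicate 3 the change of the leading probe set was -1.91.

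MMP9, gelatinase B, which cuts much the same substrates as MMP2 and is abundant in leukocytes and osteoclasts, was dim. Probe set Gga.198.1.S1_at measured 3.30, 2.91 and 3.51 (log2) in PGC replicates 1, 2 and 3, and 2.53 to 2.91 with a median of 2.85 in GSC. The groups touched, since PGC replicate 2 and GSC replicates 1, 2 and 3 all held the same value of 2.91. That value was shared by 20 to 209 probe sets on each array, and 4.50% of genes had 4 or more equal values among their 9 arrays. The PGC mean was 3.24 ± 0.31 (SD, n = 3), the GSC mean was 2.77 ± 0.18 (SD, n = 6), and 3 of the 6 GSC arrays were below the reporter mark. With those arrays set at the mark the level was at least 1.27-fold higher in PGC, and the fitted log2 change was 0.47 ± 0.15 (SE, limma adjusted p = 0.0237). The call was lost without PGC replicate 1 (0.44) or PGC replicate 3 (0.34). Of the 8 leukocyte and macrophage markers, 3 were lower in PGC, 1 was higher (CYBB) and 4 did not pass. That is 50% called, near the 42% of all genes. The list means were 3.25 to 3.55 (log2) in PGC against 3.70 to 3.89 in GSC. When any 1 array was left out, 2 to 5 of these markers were lower (5 without PGC replicate 3).

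The lysyl oxidases also parted. LOXL1, an enzyme known for elastic fibre assembly in mice, measured 7.14, 6.72 and 7.01 (log2) in PGC replicates 1, 2 and 3 on its only probe set, Gga.5928.1.S1_at. The GSC arrays ran from 5.99 to 6.59 with a median of 6.21. All PGC arrays lay above all GSC arrays, with a gap of 0.13 to GSC replicate 1. The means were 6.96 ± 0.22 (SD, n = 3) and 6.22 ± 0.22 (n = 6), with nearly equal spread in both groups. The log2 change was 0.74 ± 0.15 (SE), a 1.67-fold higher level in PGC (limma adjusted p = 0.00187), and it stayed between 0.64 and 0.86 when any 1 array was left out (0.71 without PGC replicate 3).

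LOXL2, a family member that carries scavenger receptor domains and cross-links collagen IV of basement membranes, was lower in PGC. Probe set GgaAffx.25869.1.S1_at measured 3.40, 3.17 and 4.65 (log2) in PGC replicates 1, 2 and 3, and 4.65 to 5.35 with a median of 5.07 in GSC. PGC replicate 3 lay next to the lowest GSC array, GSC replicate 5, at a distance of 0.0031, whereas the other PGC arrays were far below. The means were 3.74 ± 0.79 (SD, n = 3) and 5.02 ± 0.25 (n = 6), and the log2 change was -1.28 ± 0.28 (SE), a 2.43-fold lower level in PGC (limma adjusted p = 0.00327). Without PGC replicate 3 it was -1.74 and without PGC replicate 2 it was -1.0, and both passed.

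LOX itself, the enzyme after which the family is named, was below the reporter mark on all arrays of both groups, so no fold is given. Probe set Gga.4303.1.S1_at measured 2.35, 2.35 and 2.42 (log2) in PGC replicates 1, 2 and 3, and 2.26 to 2.77 with a median of 2.75 in GSC, and the groups overlapped. The log2 change was -0.26 ± 0.13 (SE, limma adjusted p = 0.120), with a 95% interval of -0.54 to 0.01. Among the alternatives run, it was called lower only without GSC replicate 2, the lowest GSC array (-0.34), and without PGC replicate 3 it was -0.29. Of the other relatives, LOXL4 measured 3.58 in PGC and 3.61 in GSC (means of log2 values, change -0.03, not passed). LOXL3 was called lower in PGC (log2 change -0.80), and 2 of its 3 PGC arrays were below the reporter mark, so its level was at least 1.22-fold lower. LOXL3 lost its call when PGC replicate 1 (-0.63) or PGC replicate 2 (-0.60) was left out.

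**Figure D2:**
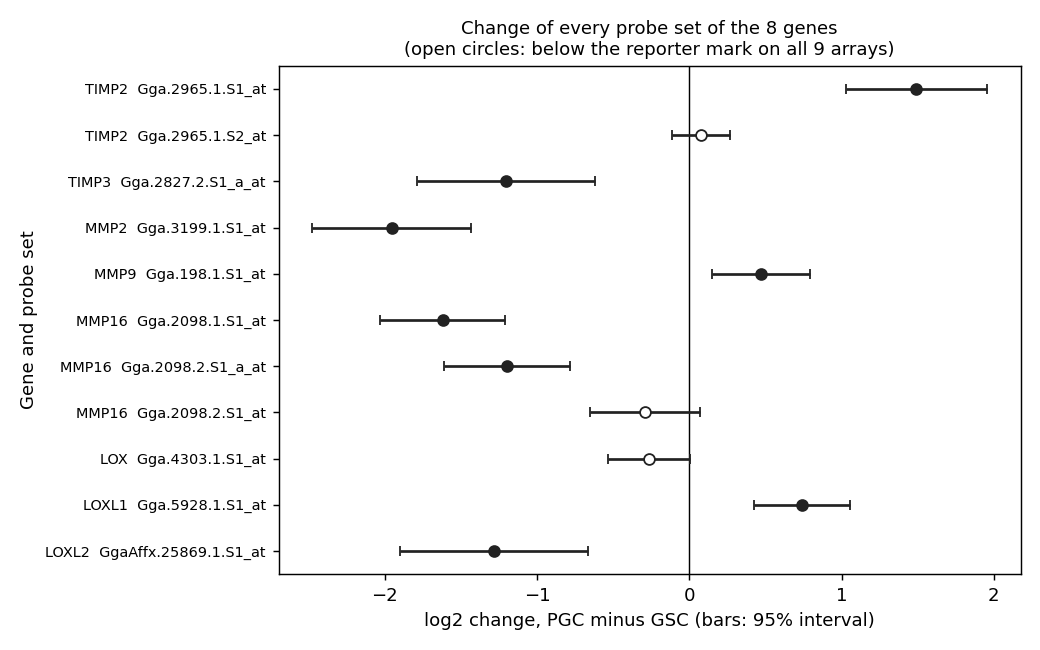
Log2 change (PGC minus GSC, horizontal axis) with its 95% interval for each of the 11 probe sets of the 8 genes, where open circles mark probe sets below the reporter mark on all 9 arrays. The intervals of TIMP2, MMP9 and LOXL1 on their leading probe sets lie above 0, those of TIMP3, MMP2, LOXL2 and 2 of the 3 MMP16 probe sets lie below it, and the 3 open circles have intervals that include 0.

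The PGC arrays were not alike in these genes. PGC replicate 3 was the PGC array closest to the GSC mean in MMP2, MMP16, LOXL2 and TIMP3, all 4 genes called lower. Its differences from the GSC mean were -1.26, -1.04, -0.37 and -0.35 there (log2), whereas those of PGC replicates 1 and 2 ran from -2.71 to -1.59. In the 3 genes called higher it was not the closest: it stood 2.04 above the GSC mean in TIMP2 and 0.75 in MMP9, the highest of the PGC arrays, and 0.79 in LOXL1, between the others. Over all called genes PGC replicate 3 was the closest of the PGC arrays in 65%. That share covers both directions and was not split between genes called higher and lower. The pooled spread in the fit understates the SE where PGC spread more than GSC. This was so in TIMP3, MMP2, MMP16 and LOXL2, and also in TIMP2 (SD 0.53 against 0.23) and MMP9 (0.31 against 0.18).

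The means of several marker lists also differed between PGC and GSC, and their part in the results was not tested. The counts of markers stand beside 42% of all genes called, 22.5% higher and 19.5% lower in PGC. Relative to the GSC mean, the gonadal somatic list fell by 2.69, 2.15 and 0.90 (log2) in PGC replicates 1, 2 and 3. MMP2 and the endothelial, erythroid, leukocyte and smooth muscle lists had this order of arrays too. In TIMP3, MMP16 and LOXL2, PGC replicate 2 was the lowest instead. TIMP2, MMP9 and LOXL1, called higher in PGC, had the array order of neither the germ cell nor the mesonephric epithelium list. The germ cell list stood 4.14, 4.02 and 3.34 (log2) above the GSC mean in PGC replicates 1, 2 and 3. For the mesonephric epithelium list these differences were 1.97, 2.47 and 2.37. Some of these gaps are small, and an order of only 3 arrays cannot link a gene to a list. Of 8 endothelial markers 7 were lower in PGC (87.5% called), with list means of 3.75 to 5.04 against 5.47 to 6.02 in GSC. The mesonephric epithelium list had means of 6.29 to 6.79 in PGC and 4.07 to 4.63 in GSC. Of its 8 markers 6 were higher (SLC34A2, SLC3A1, CDH1, CUBN, HNF4A and LRP2) and 2, UMOD and PAX2, were lower. A single one was lower when any of GSC replicates 1, 2 and 6 and PGC replicates 1 and 2 was left out. Of 5 erythroid markers 3 were lower (60% called), and 2 to 5 were when any 1 array was left out (5 without PGC replicate 3). Their list means were 7.63 to 8.60 in PGC and 8.78 to 9.11 in GSC. Of 6 smooth muscle markers 1, CALD1, was lower (16.7% called), and 1 to 4 were when any 1 array was left out (4 without PGC replicate 3). Calls over all genes also rose without PGC replicate 3. The smooth muscle list means were 3.75 to 4.25 in PGC and 4.30 to 4.59 in GSC. The smooth muscle markers ACTA2 and MYH11 and the leukocyte markers SPI1 and TLR4 were below the reporter mark on all 9 arrays.

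**Figure D3:**
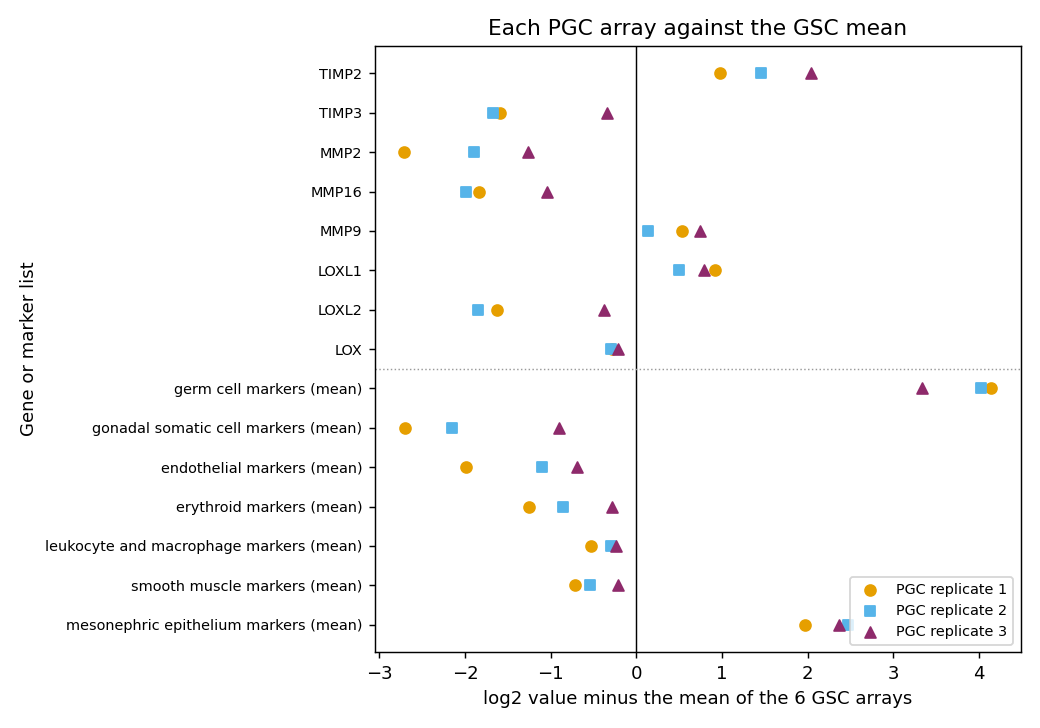
Log2 value of each PGC array minus the mean of the 6 GSC arrays (horizontal axis) for the 8 genes and, below the dotted line, for the mean of each marker list. PGC replicate 3 (triangle) is nearest to 0 in TIMP3, MMP2, MMP16, LOXL2 and LOX and in every marker list but the mesonephric epithelium. It is farthest from 0 in TIMP2 and MMP9.

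The genes around these proteins were described by 5 lists. Among all genes 42% were called, 22.5% higher and 19.5% lower in PGC. Of 10 other MMPs measured, 1 was higher and 1 lower in PGC (20% called). Below the reporter mark on all 9 arrays lay 6 of them (MMP1, MMP3, MMP7, MMP10, MMP13 and MMP27). MMP24, a membrane-type enzyme, fell by 0.46 on the log2 scale (1.37-fold) and MMP17, also membrane-bound, was higher by 0.42 (0.66 with the mean of its probe sets). MMP24 lost its call without PGC replicate 1 (-0.39) or PGC replicate 2 (-0.44). The number of other MMPs called lower was 0 without either of these arrays, 2 without GSC replicate 1 and 3 without PGC replicate 3. MMP15 (-0.22) and MMP28 (-0.39) did not pass.

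Of 18 genes that activate, inhibit or bind such proteases, 3 were higher, 8 lower and 7 did not pass. Thus 61.1% were called, against 42% of all genes, and the median log2 change was -0.26. PCSK6, a proprotein convertase that cleaves precursors in the secretory path, was 6.89-fold higher in PGC: the PGC arrays measured 5.98 to 6.99 (log2) and the GSC arrays 3.40 to 3.82 (log2 change 2.79 ± 0.19 SE, limma adjusted p = 1.50e-06, and 0.94 with the mean of its probe sets). RECK, a membrane-anchored inhibitor of MMP2 and MMP9 in mammals, was 2.94-fold lower (-1.56 ± 0.17 SE), with PGC values of 4.66 to 5.10 and GSC values of 5.89 to 6.66. PLAU, the urokinase that turns plasminogen into plasmin, was 2.45-fold lower (-1.29, and -0.50 with the mean of its probe sets). PLG, the plasminogen gene itself, was below the reporter mark on all 6 GSC arrays and at least 1.79-fold higher in PGC (fitted log2 change 1.31, and 0.85 with the mean of its probe sets). FURIN, another convertase, did not pass (-0.05).

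Of 25 genes in the ADAM and ADAMTS list, 4 were higher and 9 lower (52.0% called against 42% of all genes, median -0.25). Not all of them are proteases, since the list also holds the ADAMTS-like genes ADAMTSL1 and ADAMTSL3. ADAMTS3, which trims the amino end of procollagens, was 4.16-fold lower in PGC (log2 change -2.06 ± 0.27 SE, and -0.91 with the mean of its probe sets). ADAM33 was 3.15-fold lower (-1.65, from 3.88 to 6.30 in PGC against 6.40 to 6.76 in GSC) and ADAMTS1, which cuts proteoglycans, 2.78-fold lower (-1.47). ADAM22, a family member without protease activity, was below the mark on all 6 GSC arrays and 1 PGC array and at least 2.32-fold higher (fitted change 1.72, and 0.62 with the mean of its probe sets). The spread of ADAM33 and ADAM22 was wide in PGC (SD 1.27 and 1.06). Their log2 changes were -2.37 and 2.33 without PGC replicate 3, and without PGC replicate 1 that of ADAM33 was -1.17.

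Of 17 genes of collagen processing and cross-linking, 2 were higher and 9 lower (64.7% called against 42% of all genes, median -0.54). PLOD1, which hydroxylates the collagen lysines that are later cross-linked, was 2.87-fold lower in PGC (log2 change -1.52 ± 0.25 SE). SERPINH1, the collagen chaperone HSP47, was 2.19-fold lower (-1.13). SLC39A13, a zinc transporter, was 2.02-fold higher (1.01 ± 0.12 SE), and PCOLCE2, an enhancer of procollagen cleavage, was below the mark on all 6 GSC arrays and at least 2.03-fold higher (fitted change 1.82, and 0.92 with the mean of its probe sets).

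The list of fibrillar collagens and elastic fibre genes includes substrates of lysyl oxidases. It also holds collagen VI genes and FN1, which are not of these classes. Of its 18 genes 16 were called (88.9% against 42% of all genes, median -1.40), 15 lower and 1 higher in PGC. COL6A3 was 3.89-fold lower (log2 change -1.96, -2.55 without PGC replicate 3, -1.51 without PGC replicate 1 and -1.04 with the mean of its probe sets), the microfibril gene FBN2 3.62-fold (-1.85), FBLN5, which binds elastin and lysyl oxidases, 3.55-fold (-1.83) and the collagen I gene COL1A2 3.46-fold (-1.79, and -1.07 with the mean of its probe sets). The exception was FBLN2, which was 2.17-fold higher in PGC (1.12 ± 0.15 SE). TIMP2 and LOXL1 thus differed in the direction opposite to that of 15 of these 18 matrix genes.

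**Figure D4:**
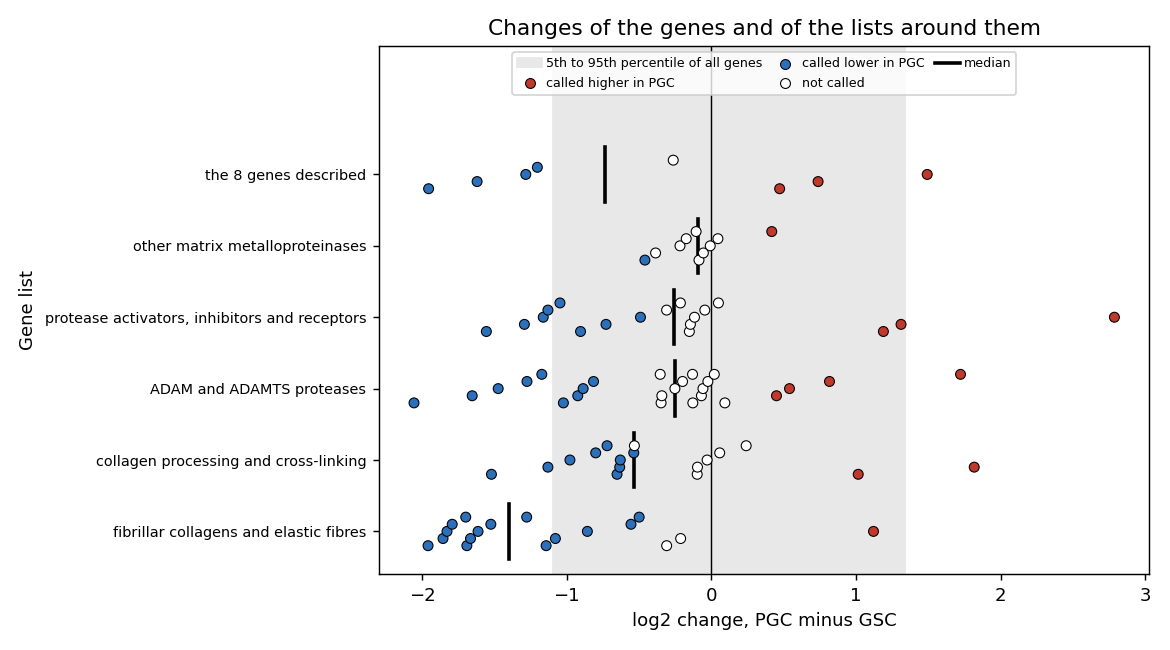
Log2 change (PGC minus GSC, horizontal axis) of the 8 genes and of the members of 5 lists, 1 circle per gene, red for genes called higher, blue for genes called lower and white for genes not called. Black bars are list medians, from -0.10 for the other MMPs to -1.40 for fibrillar collagens and elastic fibres, and the grey band holds the 5th to 95th percentile of all genes (-1.10 to 1.34).

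Genes with the most similar profile were sought by the root mean square difference of log2 values over the 9 arrays, after each gene was centred on its own mean. The search covered at least 9615 other genes with a mean at or above the reporter mark. Genes with a LOC placeholder name were left out of it. The closest to TIMP2 were ALDH4A1 (difference 0.12) and NQO1 (0.20). TIMP3 and LOXL2 stood close to each other: TIMP3 was the closest gene to LOXL2 (0.12), and KLF6 was the second closest to both (0.11 to TIMP3, 0.13 to LOXL2), while STRIP2 was the closest to TIMP3 (0.11). MMP2 was closest to TMEM132D (0.09) and MXRA5 (0.12), and MMP16 to TSHZ1 (0.12) and SXPH (0.13). LOXL1 was closest to WDYHV1 (0.05) and UNC119B (0.06), and the dim MMP9 to CSNK2A2 (0.06) and TBC1D22B (0.07). LOX, whose values below the mark carry little signal, was closest to SERTAD4 (0.08) and SMIM11 (0.09). Small differences come easily to genes that vary little, so the values are not ranked between genes.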

How the data were processed

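Per the submitters' processing notes, the authors made the deposited log2 values from the arrays with RMA (no version named). The scale was taken as log2 from the range of the values (0.794 to 12.4), and array medians were 3.03 to 3.12. RMA compresses differences of dim probe sets, and no detection calls were used. The authors' array had 38535 probe sets. Left out were 96 AFFX controls, and 38439 were tested. Symbols came from the platform annotation, by exact match (1 symbol for 27168 probe sets, several for 177, none for 11094). All 8 measured members had their Entrez identifier under the same symbol in the GRCg7b gene table of RefSeq. Of 104 symbols in the pathway lists, 88 were measured, and of 55 marker symbols, 50. No sequence or coordinate is given. Probe sets ending in _s_at or _a_at can match several transcripts.

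Genes and probe sets were fitted on cell fraction with limma 3.58.1 in R 4.3.3 (lmFit, eBayes, two-sided, Benjamini-Hochberg over 13009 genes or 38439 probe sets). The code was tested on simulated data in which each gene had the same SD in both groups, so unequal spread was not covered. SEs are limma's moderated ones. Folds against arrays below the reporter mark of 2.88 use the mark and are given as at least. Named were all members, up to 4 called genes of each pathway list with the largest change, the 2 closest profiles per member and marker genes; other list genes are named only to describe a list or the families of the members. The members and lists were chosen with earlier results of these data known. Alternatives were leaving out each array, the replicate number as a block, quantile normalization, median centring, leaving out dim probe sets, eBayes with trend and robust, arrayWeights, and the mean of a gene's probe sets.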

Additional observations from a re-analysis of the deposited data

How the results depend on the processing

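TIMP2, MMP2, MMP16, LOXL1 and LOXL2 kept their direction and their call under all 16 alternatives. Of these, the mean of a gene's probe sets is no separate check. It includes the leading probe sets of TIMP2 and MMP16, and MMP2, LOXL1 and LOXL2 have 1 probe set each. None of the alternatives fitted a separate variance for each group. The calls of TIMP2, MMP2, MMP16 and LOXL2, whose values spread more in PGC than in GSC, were thus not checked in that respect. No direction of the 8 genes turned. Replicate numbers 1 to 3 occur in both groups, and the labels do not say whether same-numbered arrays are paired. The deviations of same-numbered PGC and GSC arrays from their group means correlated at 0.18, -0.34 and 0.11. With only 3 PGC arrays, such values cannot decide whether these arrays share more than their replicate number. With it as a replicate block, which leaves the contrast to fewer arrays, 1845 genes were higher and 1287 lower (3073 and 2517 probe sets), TIMP3 (log2 change -1.34, adjusted p = 0.0506) and MMP9 (0.33, adjusted p = 0.220) lost their calls, as did LOXL3 (-0.86, adjusted p = 0.0672), 0 other MMPs were called in either direction, and 4 collagen processing genes were lower. MMP9 also lost its call in the absence of PGC replicate 1 (0.44, adjusted p = 0.0813), in that of PGC replicate 3 (0.34, adjusted p = 0.0852), and with arrayWeights (0.34, adjusted p = 0.0841), in a range of adjusted p from 0.00621 to 0.220 over all alternatives. Leaving out 1 array gave MMP9 changes of 0.34 to 0.64 and LOX changes of -0.34 to -0.24. LOX gained a call without GSC replicate 2 (-0.34, adjusted p = 0.0216; range 0.0216 to 0.574) and could not be tested with dim probe sets left out. Leaving out 1 array gave 0 to 3 other MMPs called lower, and arrayWeights gave 3. With the mean of all probe sets, 5 protease activators, inhibitors and receptors and 2 ADAM and ADAMTS genes were higher. With dim probe sets left out 1 collagen processing gene was higher, since PCOLCE2, with a mean below the reporter mark, was removed before the test. Leaving out 1 array gave 2298 to 3321 genes called higher and 1914 to 2983 lower. Apart from the removal of dim probe sets, the cause of these shifts was not tested. The median change of all genes stayed between -0.03 and 0.00 under every alternative. Signal near the reporter mark limits MMP9 and LOX.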
